A study of Mus musculus with 12 samples.

Results

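The cells described here are T cells whose barcode carried 2 or more productive T cell receptor beta chains (TRB) in single-cell receptor libraries from mouse mammary tumours. They were chosen by that number alone. A called cell was a member when it held at least 2 TRB contigs marked productive and high-confidence that differed in the nucleotide sequence of the CDR3, the junctional loop that meets the antigen. By this rule 502 of the 10295 cells with a TRB were members, or 4.88%. Of these, 489 cells held exactly 2 TRB and 13 held 3. The other 9793 cells held 1 TRB and are called single-TRB cells below. In a member, the TRB with more UMIs (molecules tagged by a unique identifier) is called the stronger and the next one the weaker.

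A T cell receptor pairs an alpha chain (TRA) with a beta chain, and each chain is assembled in the thymus from V and J segments, with a D segment in between in the beta chain. The beta locus is rearranged first, and a productive beta chain signals through the pre-T cell receptor to stop further beta rearrangement, a process called allelic exclusion. Alpha rearrangement continues on both alleles until selection, so T cells with more than 1 productive alpha chain are common and T cells with more than 1 productive beta chain are rare. In droplet data a barcode can also show 2 beta chains when its droplet enclosed more than 1 cell or took up free RNA, and the contig table alone does not separate these from allelic inclusion.

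The libraries came from CD45+ leukocytes of mammary tumours in BALB/c mice, a strain with no further allele named in the labels, which also give no age. The treatment in the labels is a 3-week course that joined cyclophosphamide, an alkylating chemotherapy, with pexidartinib, which inhibits the CSF1 receptor needed by macrophages. Of the 6 libraries used, PBS1 was labelled untreated, and CSF1R, CTX, CTX2 and Combined were labelled treated. The PBS2 receptor record is labelled treated and its paired expression record untreated, so PBS2 was left out of comparisons of treatment. CSF1R was tied to the treated expression group but to no single sample of it. The library tags are names in the table that the labels do not define, so agents given alone cannot be told apart from the combination here, and no label says whether a library held 1 tumour or a pool.

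The libraries differed in size, from 245 called cells and 6807 UMIs in PBS1 to 7629 called cells and 121305 UMIs in Combined. Combined alone held 400 of the 502 members (79.7%), so values are given by library and means weight the 6 libraries equally. Of 11468 distinct barcodes, 50 were called in more than 1 library, and 2 members had such a barcode. A weaker TRB was found again in another library for 2 members (0.398%), both in Combined, and in neither case under the same barcode. The TRB of single-TRB cells was found again in 120 of 9793 (1.23%), 92 of them in CTX2. As a check of cell type, 437 members (87.1%) also held a productive TRA, and 1 member held an immunoglobulin, gamma or delta contig. The invariant TRA of natural killer T cells was seen in 1 member (0.199%) and in 18 single-TRB cells (0.184%). That of mucosal-associated invariant T cells was seen in 2 members (0.398%) and in 6 single-TRB cells (0.0613%).

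Most pairs of TRB were met in 1 barcode only, but 5 pairs came back in several barcodes of a library. Their CDR3 sequences are shown because a dual-TRB cell that divided could leave a recurring pair. Droplets that each joined cells of the same 2 clones could also leave one, and neither was tested. Each is written 5′ to 3′ as the contig has it, with capitals from the fifth codon to the sixth codon from the end. The capitals mark positions only and do not show which bases are junctional.
Pair 1, TRBV13-2 and TRBJ2-1: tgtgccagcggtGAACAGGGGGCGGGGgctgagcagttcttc
Pair 1, TRBV4 and TRBJ1-4: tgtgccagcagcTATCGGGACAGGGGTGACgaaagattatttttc
Pair 1, alpha chain TRAV9-4 and TRAJ2: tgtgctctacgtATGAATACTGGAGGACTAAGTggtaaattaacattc
Pair 2, TRBV13-2 and TRBJ2-4: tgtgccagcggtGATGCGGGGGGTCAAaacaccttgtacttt
Pair 2, TRBV4 and TRBJ2-7: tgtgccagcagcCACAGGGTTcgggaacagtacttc
Pair 2, alpha chain TRAV7-1 and TRAJ22: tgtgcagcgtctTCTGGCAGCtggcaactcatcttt
Pair 3, TRBV13-1 and TRBJ2-5: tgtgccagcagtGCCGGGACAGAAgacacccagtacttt
Pair 3, TRBV4 and TRBJ1-2: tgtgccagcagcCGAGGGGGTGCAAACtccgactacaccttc
Pair 4, TRBV13-3 and TRBJ2-3: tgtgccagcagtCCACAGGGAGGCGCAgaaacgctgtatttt
Pair 4, TRBV3 and TRBJ1-5: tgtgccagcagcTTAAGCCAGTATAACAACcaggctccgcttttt
Pair 5, TRBV13-2 and TRBJ2-7: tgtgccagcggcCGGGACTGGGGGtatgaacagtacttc
Pair 5, TRBV14 and TRBJ2-7: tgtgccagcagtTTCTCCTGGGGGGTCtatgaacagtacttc
The V segments lie on mouse chromosome 6, TRBV4 at chr6:41059443-41059886 and TRBV13-2 at chr6:41121396-41121832 in the RefSeq table of GRCm38.p6.

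Dual-TRB cells were a small share of every library. PBS1 had 5 members among 192 TRB cells (2.60%, exact 95% interval 0.851 to 5.97). PBS2 had 16 of 432 (3.7%, 2.13 to 5.95) and CSF1R had 27 of 866 (3.12%, 2.06 to 4.50). CTX had 24 of 532 (4.51%, 2.91 to 6.64), CTX2 had 30 of 1085 (2.76%, 1.87 to 3.92), and Combined had 400 of 7188 (5.56%, 5.05 to 6.12). The interval of Combined overlapped those of PBS1, PBS2 and CTX and lay above those of CSF1R and CTX2. The intervals cover counting error only. The mean was 3.71% ± 1.14 (SD, n = 6).

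The untreated library lay 1.39 percentage points under the treated mean of 3.99% ± 1.29 (SD, n = 4), with a two-sided exact permutation p of 0.4. With 1 untreated library the smallest p this design allows is 0.2, and PBS1 had the fewest cells and members, so no effect of treatment could be shown. The share was also set against the number of TRB cells, since more loaded cells give more droplets with 2 cells. Pearson's r was 0.776 (exact permutation p = 0.0986, adjusted 0.197) and Spearman's rho was 0.486 (exact permutation p = 0.356, adjusted 0.356) over 6 libraries, with adjustment over these 2 measures. Without Combined and PBS1, the libraries farthest from the median cell number, r was -0.831 over 4 libraries, so the positive value rests on those 2.

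**Figure D1:**
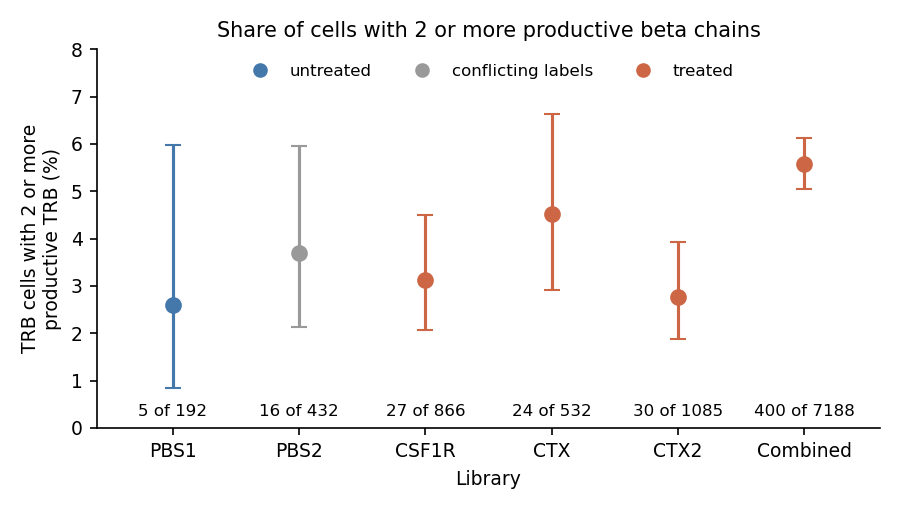
Share of TRB cells with 2 or more productive TRB in each library, in percent, with exact 95% intervals and the counts at the foot. Colours give the treatment label. Combined is highest at 5.56% and PBS1 lowest at 2.60%, with the widest interval.

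The weaker TRB was usually well below the stronger one in UMIs. The ratio of weaker to stronger had a median of 0.375 over the 502 members, with quartiles at 0.276 and 0.5. By library the median ratio was 0.5 in PBS1, CSF1R and CTX, 0.464 in PBS2, 0.390 in CTX2 and 0.357 in Combined. The ratio reached 0.5 in 60% of members in PBS1, 50% in PBS2, 59.3% in CSF1R, 54.2% in CTX, 36.7% in CTX2 and 27.5% in Combined. Over all members this was 161 (32.1%), and without Combined 51 of 102 (50%). In all, 16 members had equal UMIs on both chains. For scale, alpha chains were examined the same way, since T cells with 2 of them are common. They had fewer UMIs, with median totals in single-TRB cells with a TRA of 3 in CSF1R and Combined and up to 7 in CTX2. The TRB medians of single-TRB cells there were 5, 10 and 16. These medians were not limited to cells with 2 or more TRA. Few UMIs leave less room for low ratios, which limits the comparison. Such barcodes may also hold more than 1 cell. In the 654 single-TRB cells with 2 or more productive TRA, the same ratio had a median of 0.6 and reached 0.5 in 71.3%. The members' ratios were thus lower than those of TRA pairs in each library's median, except that the difference in PBS1 (0.5 against 0.556) rested on 5 members. These values describe the members and were not tested, since UMIs bear on which contigs the caller marks.

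The caller's mark set the lower edge of the members. No member had a ratio under 0.2 or a weaker TRB of 1 UMI, and 79 members (15.7%) had a weaker TRB of 2 UMIs. Leaving out the high-confidence mark would add 318 cells, of which 161 had a weaker TRB of 1 UMI and the other 157 had 2 or more UMIs and a ratio under 0.2. Just inside the edge, 79 members had a ratio from 0.2 up to 0.25. Just outside it, 78 cells had 2 or more UMIs and a ratio from 0.15 up to 0.2. Cell numbers therefore ran on across the edge without a gap, and Combined held 279 of the 318 added cells.

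**Figure D2:**
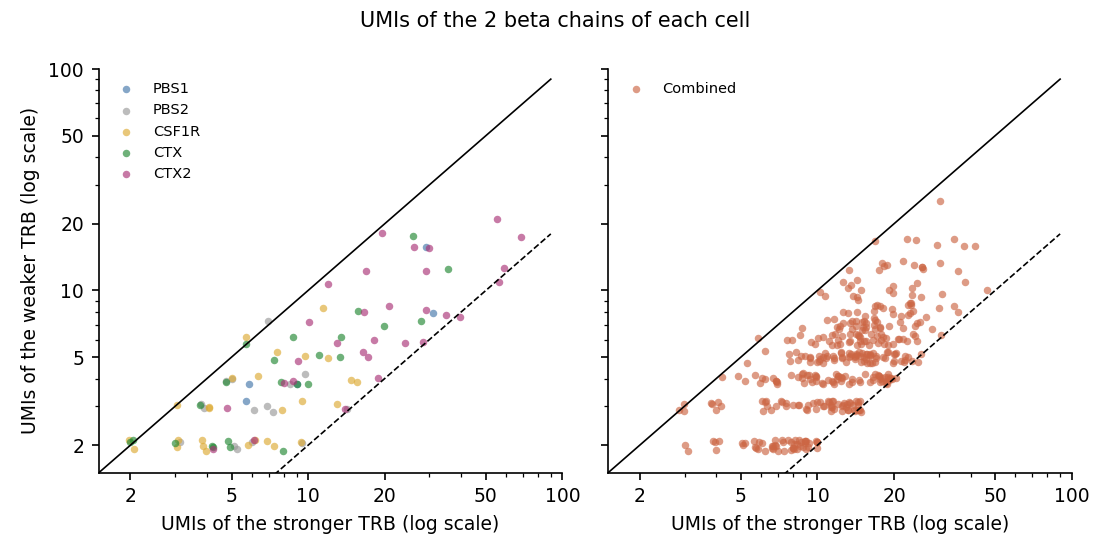
UMIs of the stronger TRB (x) and weaker TRB (y) of each member, on log axes with points moved slightly at random so that they show, for 5 libraries on the left and Combined on the right. The solid line marks equal UMIs and the dashed line a ratio of 0.2, at which the members stop.

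Members carried more TRB UMIs than single-TRB cells in every library. The median of total TRB UMIs was 13 against 11 in PBS1, 9 against 7 in PBS2, 9 against 5 in CSF1R, 12 against 7 in CTX, 26.5 against 16 in CTX2 and 18 against 10 in Combined. This count belongs to the rule and is a description. The alpha chain gives a count that the rule did not use. Median productive TRA UMIs of members and single-TRB cells were 4 and 6 in PBS1, 4 and 4 in PBS2, 3 and 3 in CSF1R, 6 and 5 in CTX, 9 and 7 in CTX2, and 4 and 3 in Combined. Members were higher in 3 libraries, lower in 1 and equal in 2. The mean log2 ratio was 0.08 ± 0.37 (SD, n = 6). Flipping the signs of the library values in every arrangement, an exact permutation test, gave a two-sided p of 0.625 (0.656 adjusted by Benjamini-Hochberg over 6 such tests).

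Within the members, the largest receptors by TRB UMIs show the spread of depth. The member with most TRB UMIs had 28 and 16 UMIs on its chains in PBS1, 14 and 3 in PBS2, 16 and 4 in CSF1R, 34 and 12 in CTX, 70 and 17 in CTX2, and 40 and 16 on the first pair of its 3 chains in Combined. The CTX cell belonged to pair 1, and the stronger chain of the CSF1R cell used TRBV15.

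Alpha chains were compared, since their number played no part in choosing the members. Among members with a TRA, 2 or more productive TRA were found in 0 of 4 in PBS1, 2 of 13 in PBS2 (15.4%), 3 of 20 in CSF1R (15%), 5 of 20 in CTX (25%), 7 of 27 in CTX2 (25.9%) and 98 of 353 in Combined (27.8%, exact 95% interval 23.2 to 32.7). In single-TRB cells the shares ran from 6.61% in CSF1R to 12.8% in CTX, with 7.70% in Combined (7.0 to 8.45). Members were higher in 5 of 6 libraries, by 8.80 percentage points on average (SD 11.2, n = 6). The exact sign-flip permutation p was 0.125 (adjusted 0.1875), so the difference did not pass the threshold of 0.05. It was 4.99 points with at least 3 UMIs per contig (exact sign-flip permutation p = 0.375, higher in 4 libraries) and 16.0 points with contigs of any confidence (p = 0.03125 in the same exact test, higher in 6). The 0 of 4 in PBS1 allows a share of up to 75% by the limit of 3 counts, and its exact 95% interval reaches 60.2%.

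A diploid cell has 2 TRA alleles, so 3 distinct rearrangements, productive or not, are more than 1 cell can hold. Such barcodes made up 0 of 4 members in PBS1, 1 of 13 in PBS2, 1 of 24 in CSF1R, 2 of 23 in CTX, 3 of 29 in CTX2 and 19 of 368 in Combined, among cells with any TRA rearrangement. The mean share was 6.01% in members and 0.151% in single-TRB cells. The difference averaged 5.86 points (SD 3.67, n = 6), with members higher in 5 libraries and both groups at 0 in PBS1. The exact sign-flip permutation p was 0.0625 (adjusted 0.125), which does not pass. With at least 3 UMIs per contig the difference was 2.17 points (exact sign-flip permutation p = 0.5, higher in 2 libraries), and with contigs of any confidence it was 10.97 points (p = 0.0625 in the same exact test). Counting both loci, 44 of 502 members (8.76%, exact 95% interval 6.44 to 11.6) held at least 3 TRB or at least 3 TRA rearrangements. Of these, 19 exceeded 2 at TRB, 26 at TRA and 1 at both. The TRB number belongs to the rule, so this joint count is a description, with no matching share taken in single-TRB cells. The other 458 members held no more than 2 at either locus. Without the contigs that had no productive call, the count was 34 (6.77%).

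Nonproductive TRB contigs were counted next. A TRB that is not productive can come from the other allele of a cell that already has a productive chain. Counted here were high-confidence TRB contigs with a V and a J gene that were not marked productive, and whose V and J genes differed from those of the cell's productive chains. They include contigs with no productive call as well as those marked nonproductive. Members held one in 0 of 5 cells in PBS1, 0 of 16 in PBS2, 0 of 27 in CSF1R, 0 of 24 in CTX, 0 of 30 in CTX2 and 6 of 400 in Combined (1.5%). In single-TRB cells the share was 1.60% in PBS1, 4.57% in PBS2, 3.58% in CSF1R, 3.15% in CTX, 10.3% in CTX2 and 2.80% in Combined. Members were lower in 6 of 6 libraries, by a mean difference of -4.09 points (SD 3.30, n = 6). The exact sign-flip permutation p was 0.03125, the smallest that 6 libraries can give, and 0.09375 after adjustment, so the result fails the correction. Such a p can pass only when several of the 6 tests reach it together, so failing does not show equal shares. The counts of 0 among members allow shares from 10% in CTX2 up to 60% in PBS1. When the contigs with no productive call were left out, the mean difference was -0.926 points (exact sign-flip permutation p = 0.03125, lower in 6 of 6 libraries), and Combined had 0.75% in members and 0.766% in single-TRB cells. With nonproductive contigs of any confidence counted, Combined was 10% in members and 9.66% in single-TRB cells, and the mean difference was -6.50 points (exact sign-flip permutation p = 0.0625). Both of these counts were added after the values were seen.

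**Figure D3:**
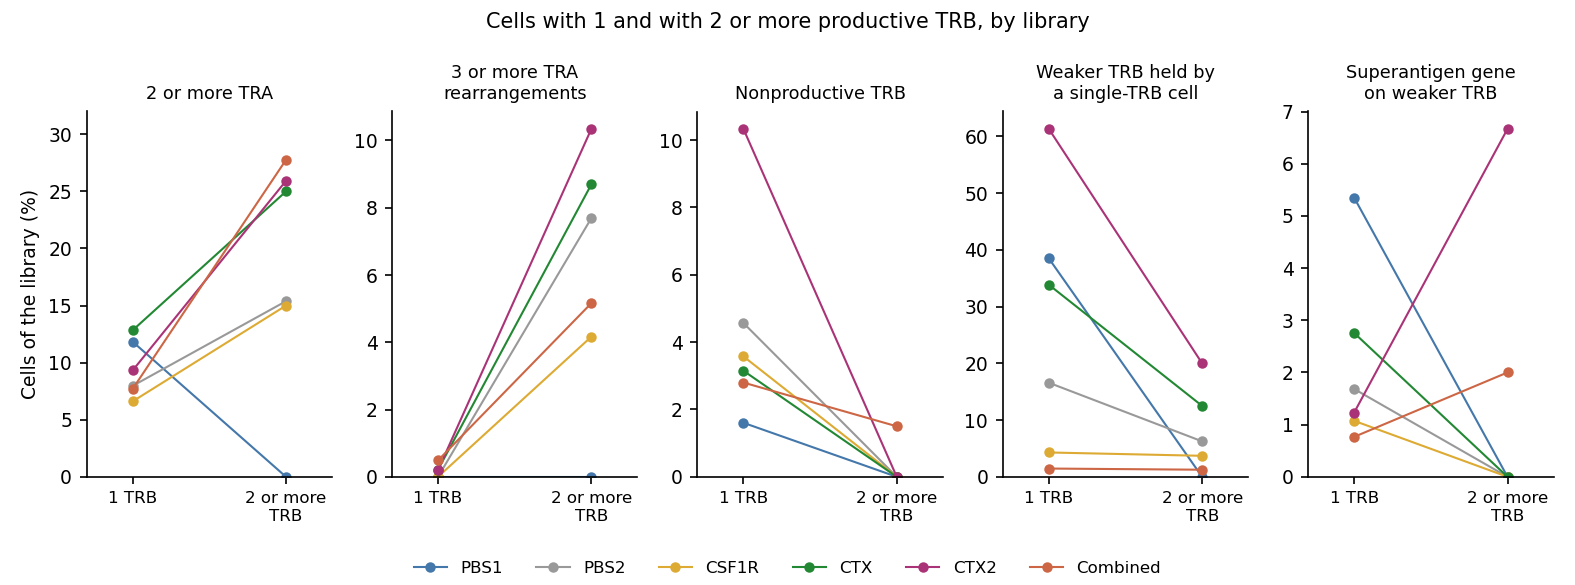
Shares of cells, in percent, in single-TRB cells and in members of each library, for the 5 measures tested as shares. Lines join the 2 values of a library. Members lie lower for nonproductive TRB in all 6 libraries and higher for 2 or more TRA in 5. None of the measures passes after adjustment, which with 6 libraries takes several tests at the smallest p together.

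Members were set against the clones around them. Single-TRB cells of a library that shared both their TRBV gene and their CDR3 nucleotides are called a clone. The weaker TRB of a member matched a single-TRB cell in 0% of members against 38.5% of single-TRB cells with a sister cell in PBS1, and in 6.25% against 16.6% in PBS2. The values were 3.7% and 4.29% in CSF1R, 12.5% and 33.9% in CTX, 20% and 61.3% in CTX2, and 1.25% and 1.46% in Combined. Members were lower in 6 of 6 libraries, by a mean difference of -18.7 points (SD 18.2, n = 6; exact sign-flip permutation p = 0.03125, adjusted 0.09375). The result fails the correction, and in CSF1R and Combined the values lay within 1 point of each other. A weaker chain held only by other members does not count as a match here. In CTX 14 of 24 members were in recurring pairs, so each of their weaker chains was also in another member. Over all libraries, 473 of 502 members (94.2%) had neither chain in a single-TRB cell.

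The largest clone was the weaker chain of 1 member in each of 4 libraries. These had 16 (PBS2), 27 (CSF1R), 30 (CTX2) and 400 (Combined) members. No chain there was the weaker one in 2 or more members, so clone size chose the chain named. The largest clone of PBS2, TRBV13-2 with CDR3 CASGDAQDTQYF, had 27 of 416 single-TRB cells. The others were the largest clones of CSF1R (TRBV1, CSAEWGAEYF, 7 of 839), CTX2 (TRBV4, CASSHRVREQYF, 114 of 1055) and Combined (TRBV13-2, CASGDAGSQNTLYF, 6 of 6788). In CTX the chains most often weaker were the TRBV13-2 and the TRBV4 chain of pair 1, tied at 4 members each, and no single-TRB cell of that library carried either. In PBS1 no weaker chain was seen in a single-TRB cell.

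The alpha chain that came with a clone was usually present when its beta chain was. A clone's main TRA is the one most of its single-TRB cells carry. It was found in 9 of the 11 members whose stronger TRB belonged to a clone of at least 2 cells and in 6 of the 7 whose weaker TRB did. Single-TRB cells of such clones held it in 897 of 929 cases (96.6%). In PBS2 the member with the weaker TRBV13-2 chain (4 UMIs, beside 5 UMIs of TRBV4) held 1 TRA, and that was the TRBV13-2 clone's own. In CSF1R the member with the weaker TRBV1 chain and in Combined the one with the weaker TRBV13-2 chain each held 3 TRA, with the clone's own among them.

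In 3 members, all in CTX2, both chains belonged to clones with a main TRA. The first joined TRBV4 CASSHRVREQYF (29 UMIs) with TRBV14 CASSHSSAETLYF (8 UMIs) and held the main TRA of both clones, with 5 and 2 UMIs. The other 2 were the carriers of pair 2, described next, and held 1 TRA each.

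Recurring pairs made up 16 of the 502 members (3.19%), and CTX held most of them. In CTX 4 pairs took in 14 of 24 members (58.3%, exact 95% interval 36.6 to 77.9), and in CTX2 1 pair took in 2 of 30. PBS1, PBS2, CSF1R and Combined had none, and for the 400 members of Combined the exact 95% interval reaches 0.918%. The count therefore rests on CTX, without which 1 pair is left. Recurring pairs of TRA in single-TRB cells, counted the same way, were 13 pairs in 75 of 654 cells. They lay in PBS1 (9 of 20 cells), CTX (18 of 57) and CTX2 (48 of 89), with none in the other libraries.

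Pair 1 was held by 8 barcodes of CTX, or 1.5% of its TRB cells, and no cell of the library carried either chain without the other. The UMIs of TRBV13-2 and TRBV4 in the 8 cells were 34 and 12, 7 and 21, 15 and 8, 6 and 13, 5 and 11, 9 and 6, 4 and 8, and 4 and 3. Each chain was the stronger one in 4 cells, and their medians were 6.5 and 9.5. A productive TRA was found in 4 of the 8 cells, and it was the same TRAV9-4 chain in all 4, with 21, 8, 7 and 2 UMIs. Of the 4 cells with no productive TRA, 3 held another TRA contig. The barcodes differed from each other at 6 or more positions. Among barcodes not called as cells, 2 held one of the chains, with 1 UMI each. Only 4 clones of single-TRB cells in CTX were larger than this pair.

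Pair 2 in CTX2 had a different surrounding. Its TRBV13-2 chain was in 54 cells without the TRBV4 chain, all of them single-TRB cells. Its TRBV4 chain was in 116 cells without the TRBV13-2 chain, of which 114 were single-TRB cells and 2 were other members. Thus the 2 barcodes with both were 3.57% and 1.69% of the carriers. Their UMIs were 38 and 8 in the first cell and 16 and 31 in the second, in the order TRBV13-2 and TRBV4. Both cells held the TRAV7-1 chain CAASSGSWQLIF, which was also in 51 of 51 TRBV13-2 carriers with a TRA and in 0 of 110 TRBV4 carriers. The main TRA of the TRBV4 carriers, TRAV7D-4 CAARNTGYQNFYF in 109 cells, was in neither.

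Pairs 3, 4 and 5 in CTX were each held by 2 barcodes. Pair 3 had 18 and 27 UMIs in one cell and 14 and 5 in the other, on TRBV13-1 and TRBV4, and both cells held the same 2 TRA, of TRAV2 and TRAV7D-4. Pair 4 had 4 and 10, and 4 and 2, on TRBV13-3 and TRBV3, with the same TRAV7D-3 chain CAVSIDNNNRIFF in both cells. A further cell carried the TRBV13-3 chain of pair 4 alone, with 3 UMIs and the same TRA. Pair 5 had 5 and 7, and 2 and 2, on TRBV13-2 and TRBV14, with the same TRAV7D-4 chain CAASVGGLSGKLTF in both. No cell carried a chain of pair 3 or pair 5 alone. In all 5 pairs, every carrier with a productive TRA shared it with the other carriers of its pair that had one.

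**Figure D4:**
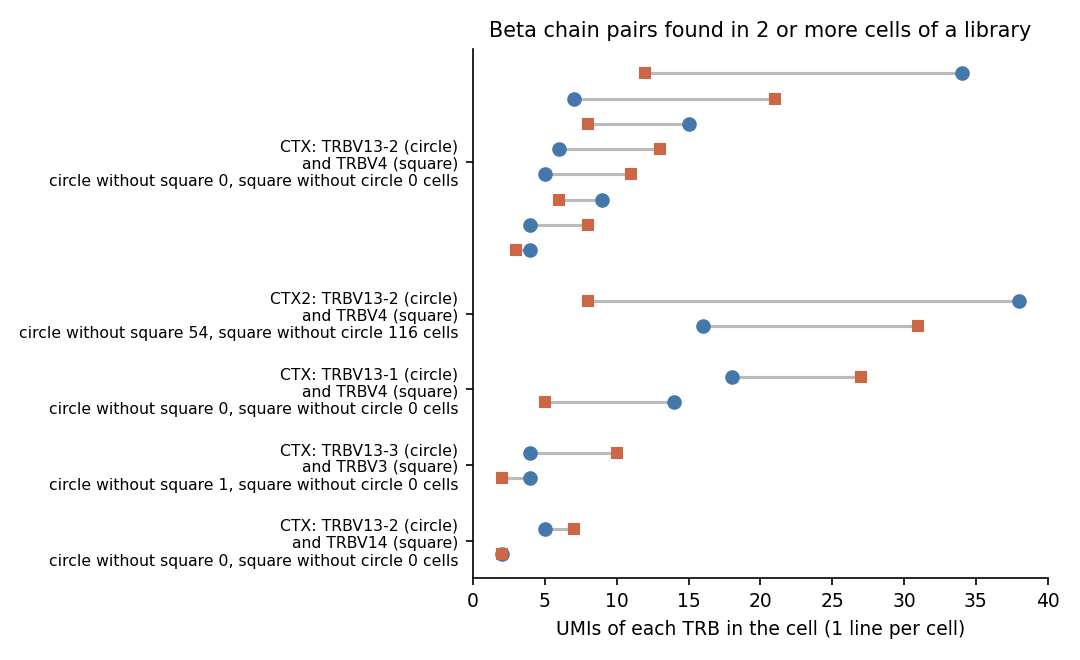
UMIs of both TRB chains in every carrier of the 5 recurring pairs, in the order of the text, with 1 line per cell joining its 2 chains, and beside each pair the number of cells that carry 1 of them without the other. In pair 1, at the top, the circle (TRBV13-2) is higher in 4 cells and the square (TRBV4) in 4. In the last cell of pair 5 both chains have 2 UMIs and the symbols overlap.

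The 2 chains of a member never shared a V gene. The same TRBV was found on both chains in 0 of 502 members, which allows a share of up to 0.598%. If the chains of single-TRB cells were drawn in pairs by their TRBV shares, the 2 genes would match in 8.87% of draws, from 8.59% in CSF1R to 16.3% in CTX2. Without the high-confidence mark 3 of 820 cells had the same TRBV on both, 1 in PBS1 and 2 in PBS2. For alpha chains the same TRAV was found in 2 of 769 cells with 2 or more TRA. J genes did repeat, with the same TRBJ on both chains in 47 members (9.36%). Both chains used the TRBJ1 cluster in 75 members (14.9%) and the TRBJ2 cluster in 179 (35.7%), and 248 (49.4%) had 1 of each. Whether contig assembly merges chains that share a V gene was not tested.

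Ranked by the mean of library shares, the V genes most used by the weaker chain were not all among the most used in single-TRB cells. The spread between libraries was wide. TRBV13-1, with a mean of 10.1% in single-TRB cells, was not among the 5 listed here. TRBV13-2 was on 15.9% ± 10.2 of weaker chains (SD, n = 6), against a mean of 18.9% in single-TRB cells. TRBV29 was on 10.4% ± 14.7 against 3.60%, and TRBV20 on 10.2% ± 14.8 against 5.44%. TRBV19 was on 9.83% ± 8.51 against 9.08%, and TRBV4 on 8.89% ± 9.24 against 6.80%. The SD was larger than the difference for each of these 5 genes, and in PBS1 they rest on 5 members. There, 3 members used TRBV29 on either chain and 2 used TRBV20, which raises both means. By count over all members, TRBV5 (54) and TRBV13-1 (46) were on more weaker chains than TRBV29 (24) and TRBV20 (37).

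BALB/c mice carry endogenous mammary tumour virus superantigens that delete most T cells using TRBV12-1, TRBV12-2, TRBV15, TRBV16 or TRBV26. These genes gave a mean of 1.44% of weaker chains and 2.14% of the TRB of single-TRB cells. Members were higher in 2 libraries and lower in 4, and the mean difference was -0.70 points (SD 3.7, n = 6; exact sign-flip permutation p = 0.656, adjusted 0.656). The stronger chain was looked at after these values were seen. There the mean difference was 4.99 points (exact sign-flip permutation p = 0.5), and over both chains it was 2.14 points (p = 0.5625 in the same exact test). On the stronger chain, Combined had 18 of 400 members (4.5%) against 52 of 6788 single-TRB cells (0.766%). CSF1R and CTX2 were also higher in members, by 1 cell each (1 of 27 and 1 of 30). PBS1 and CTX were lower, with 0 of 5 and 0 of 24 members. Both means rest on PBS2, where 5 of 16 members had such a gene on the stronger chain. Without PBS2 the mean differences were 0.0725 and -0.215 points over 5 libraries (exact sign-flip permutation p = 1 and 0.9375).

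Seen from the genes, the pooled counts, most of them from Combined, hold a larger share of members among users of the superantigen-deleted genes than among users of all genes. Of 140 cells with a chain of the list, 35 were members (25%, exact 95% interval 18.1 to 33.0), against 9.30% for all V genes together, where each member counts once per chain. TRBV15 was used by 24 cells, of which 10 were members (41.7%), always on the stronger chain. Of these, 9 lay in Combined, where 4 single-TRB cells used it, and 1 lay in CSF1R. TRBV26 was used by 15 cells with 5 members, 3 of them in PBS2, where no single-TRB cell had it. TRBV16 had 14 members of 69 cells (20.3%), TRBV12-1 had 4 of 20 and TRBV12-2 had 2 of 12. Of the 35 members with a gene of the list, 25 held a TRA and 2 held 2 or more. Over all members, 115 of the 437 with a TRA (26.3%) held 2 or more. TRBV2 lay at the other end, with 26 members of 511 cells (5.09%). These shares pool libraries and carry no test over them.

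TRBV23, a gene named after its values were seen, had the highest share among genes with more than 2 cells. It was used by 11 cells, of which 7 were members (63.6%, exact 95% interval 30.8 to 89.1) from 4 libraries, and all 4 single-TRB cells with it lay in Combined. It was the weaker chain in all 7 members, with 2 to 5 UMIs. The CDR3 began with the residues CSSVPA in 6 of the 7 members and in 3 of the 4 single-TRB cells. None of the 7 members held 2 or more TRA. Of them, 6 held a TRA, too few to set apart from the 26.3% over all members with a TRA. Starts of CTSVPAV were also seen on weaker TRBV13-1 chains of CTX, with 2 UMIs each, so the run is not limited to TRBV23. One of the 7 TRBV23 members, from CSF1R, shows the shared start (CDR3 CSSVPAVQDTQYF). Its bases hold the opening lower-case run of the TRBV13-1 chain of pair 3, in another reading frame. Whether such CDR3 were called in a shifted frame was not tested.
TRBV23 and TRBJ2-5, weaker chain, 2 UMIs: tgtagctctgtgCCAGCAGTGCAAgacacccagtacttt
The gene lies at chr6:41216073-41216526 in the RefSeq table of GRCm38.p6.

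**Figure D5:**
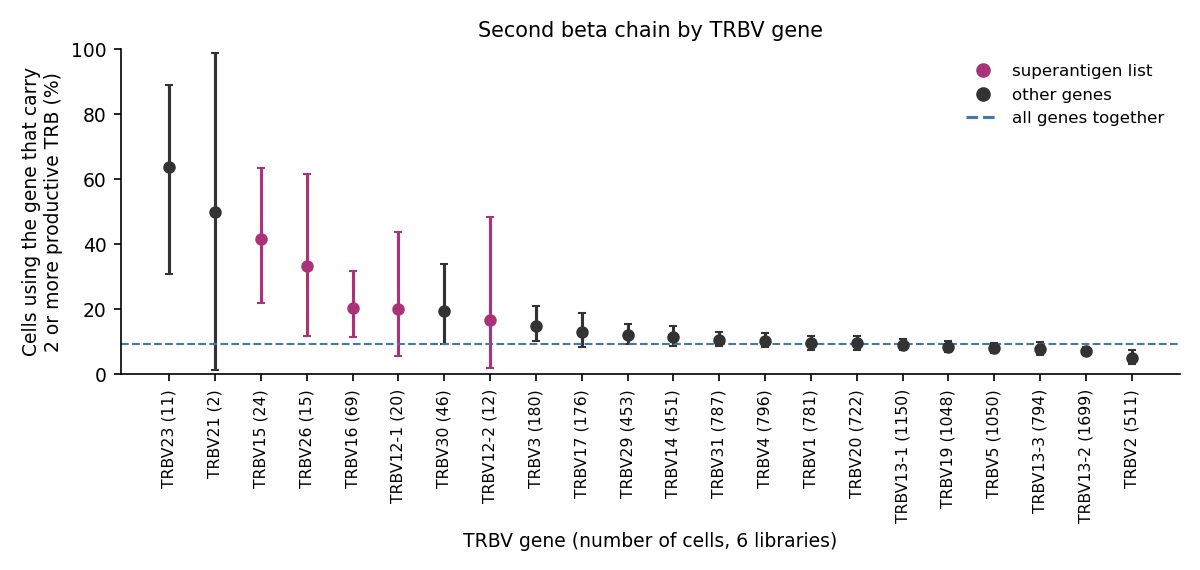
Share of the cells using each TRBV gene that were members, in percent, with exact 95% intervals and the number of cells after each name, pooled over 6 libraries. TRBV23 (63.6%) and TRBV15 (41.7%) lie above the line for all genes at 9.30%, and TRBV2 (5.09%) lies below it.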

How the data were processed

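The contig table holds read counts and UMI counts per assembled receptor contig, whole numbers as the authors deposited them and not normalized. Cell Ranger 3.0.2 and the builds mm10 and GRCm38 are named, per the submitters' processing notes. Cell calls, chains, genes, CDR3, productive status and the high-confidence mark were taken as deposited. Of 11 library names in the table, 6 matched a title by number while 5 did not and were left aside, as were the expression matrices. The members, lists and named receptors were chosen with earlier results of these data known.

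Clone sizes came from single-TRB cells. A clone key was TRBV gene and CDR3 nucleotide sequence. Members and single-TRB cells were compared within libraries by an exact permutation test, two-sided, that flips the signs of the 6 library differences (64 arrangements, smallest p 0.03125), with Benjamini-Hochberg adjustment over the 6 such tests. Nothing in the labels says that libraries came from separate animals, so p-values measure the spread between these libraries only. Shares of a library carry exact Clopper-Pearson 95% intervals, and a share of 0 is given the limit of 3 counts of the total unless an interval is named. Both cover counting error only. Doublets were kept and no caller was run, because the members are the cells such a filter removes.

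Receptors were named by rule: every TRB pair in 2 or more barcodes of a library, the member with most TRB UMIs and the chain most often weaker in each library, the superantigen genes and the 5 TRBV genes most used by weaker chains. TRBV2, TRBV5 and TRBV23 were named after their values were seen, and the 5 genes were ranked by mean share over libraries. Gene positions are from RefSeq's GRCm38.p6 table, from another strain than BALB/c. Alternatives were a UMI minimum of 2 or 3, contigs of any confidence, other definitions of a TRB pair, deeper cells, and leaving out each library. The functions were tested on simulated data. The tools were matplotlib 3.10.9, scipy 1.17.1, numpy 2.4.6 and Python 3.11.15.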

Additional observations from a re-analysis of the deposited data

Results flagged for a closer look

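The share of cells with 2 or more TRA lay 11.8 points lower in members than in single-TRB cells in PBS1 (a difference of -11.8), while it lay higher in all 4 treated libraries. The difference between untreated and treated was not tested, and PBS1 had 4 members with a TRA. Nonproductive TRB in members was at 1.5% in Combined and at 0 in the other 3 treated libraries. Their 0 of 27, 0 of 24 and 0 of 30 members allow 11.1%, 12.5% and 10%, so the value of Combined is not shown to differ from theirs. The share of members in recurring pairs stood apart in CTX, at 58.3%, from the other treated libraries. These last 2 came up among 15 measures examined for a gap between 1 library and the rest of its group. Chance alone brings up about 1 group in 20 where values vary smoothly, which shares at 0 do not. With the other 3 treated libraries at 0 for nonproductive TRB, any value above 0 in Combined would have been flagged. For recurring pairs, CSF1R and Combined were at 0.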

How the results depend on the processing

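Members and single-TRB cells were compared within each library throughout. For treated against untreated libraries, no paired analysis was possible because the replicate numbers follow accession order and the libraries share no number from the labels. With contigs of any confidence, the dual-TRB share was 6.25% in PBS2 and 9.45% in Combined. The difference in 2 or more TRA was then 16.0 points (exact sign-flip permutation p = 0.03125). In the same setting, the weaker chain held by a single-TRB cell differed by -16.2 points, and the superantigen genes by 0.023 points. With at least 3 UMIs per contig, Combined had 5.01%, recurring pairs numbered 3, 2 or more TRA differed by 4.99 points and 3 or more TRA rearrangements by 2.17, the log2 ratio of TRA UMIs was -0.157 and the held difference -19.6; at 2 UMIs these were -0.0371 and -18.5. Without recurring pairs, an alternative chosen after seeing the data, CTX had 1.93%. The treated minus untreated difference in the dual-TRB share was 1.39 points as reported, and 0.326 points with at least 3 UMIs, 0.695 without recurring pairs, 0.836 with PBS2 counted as untreated and 0.861 without Combined. In cells whose strongest TRB reached the library median, nonproductive TRB differed by -3.27 points and the held difference was -20.3; held by at least 10 cells it was -11.5. Nonproductive contigs of any confidence gave -6.50, and those marked nonproductive only -0.926. Superantigen genes gave 4.99 on the stronger chain and 2.14 on both. The cause was not tested. Leaving out 1 library at a time, where the smallest p is 0.0625, gave -4.65 to -2.84 for nonproductive TRB, -22.4 to -14.2 for held chains, -1.92 to 0.231 for superantigen genes (0.231 without PBS1) and 1 to 5 recurring pairs (1 without CTX). PBS1, with 5 members, and the lowest UMI counts limit what these libraries can show.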
